A study of Mus musculus with 5 samples.

Results

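The 8 genes described here encode the coat, the neck proteins and the diaphragm of caveolae, and were chosen by symbol: Cav1, Cav2, Cavin1, Cavin2, Cavin3, Ehd2, Pacsin2 and Plvap. All 8 were found among the 49315 genes of the count table, and all 8 passed the filter on low counts, which left 18727 genes tested. The libraries were made from polyadenylated RNA of endothelial cells isolated from the lungs of WT mice (3 libraries) and of TET2KO mice, which lack the DNA demethylase TET2 in endothelium (2 libraries). Both genotypes had received angiotensin II, a vasoconstrictor hormone, for 28 days, and no library without the hormone was analysed here. The labels gave neither the Cre driver, nor the deleted exons, nor the age of the mice, and did not say whether a library came from 1 animal, so the p-values measure the spread between these libraries, which may be technical.

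Caveolae are flask-shaped pits of the plasma membrane that are dense in the endothelium of continuous capillaries such as those of the lung. Caveolins insert into the inner leaflet of the membrane and cavins assemble on them as a cytosolic coat, so that caveolae are lost without either caveolin-1 or cavin-1. EHD2 and pacsin-2 (syndapin-2) shape and hold the neck of the pit, and the plasmalemma vesicle-associated protein PLVAP forms the diaphragm that spans the neck of endothelial caveolae, transendothelial channels and fenestrae. Caveolae also buffer membrane stretch, carry cargo across endothelium and hold the endothelial nitric oxide synthase in a restrained state. Alveolar type 1 cells, adipocytes, fibroblasts and smooth muscle carry caveolae as well, while PLVAP is largely endothelial.

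Library totals ran from 27346804 to 35440257 counts. Tet2, the targeted gene, measured 141, 174 and 131 CPM (counts scaled to a common library total, after TMM adjustment) in WT replicates 1 to 3, against 139 and 162 in TET2KO replicates 1 and 2, so its whole-gene count did not separate the groups and did not check the labels. WT replicate 2 stood apart from the other libraries: on the first principal component (57.5% of variance) it scored 90.8, against -50.9 to 7.71 for the others. The defining endothelial genes were present in every library, with Pecam1 at 415 to 998 CPM and Cdh5 at 484 to 1256 CPM. The pan-leukocyte gene Ptprc was present too, at 1163 to 1513 CPM, so the isolates also held leukocyte RNA. The summed level of 10 macrophage and monocyte genes was 41080.3 CPM in WT replicate 2, against 3778 to 10619.8 in the rest. WT replicate 3 was treated differently by the authors' deposited table of fold changes. For 12175 genes with a mean normalized signal of at least 100, the log2 fold changes in that table lay within 0.01 of the ratio of TET2KO replicates 1 and 2 together with WT replicate 3 to WT replicates 1 and 2 for 100% of genes, and within 0.01 of the ratio of the groups as labelled for 3.22%. The labels and that table thus disagree on the group of WT replicate 3, and the Tet2 count does not settle it, so every WT mean and fold change here depends on the label being right. Groups here follow the labels, and fold changes of the 8 genes are also given without WT replicate 2 or 3.

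By GENCODE M21 (GRCm38), Cav2 (chromosome 6, 17281185 to 17289115, plus strand) and Cav1 (chromosome 6, 17306335 to 17341452, plus strand) are neighbours, with 17219 bases between them. Cavin1 is at 100956733 to 100970887 on chromosome 11 (minus strand), Cavin2 at 51289126 to 51302960 on chromosome 1 (plus strand), and Cavin3 at 105480083 to 105482300 on chromosome 7 (minus strand). Ehd2 spans 15946958 to 15967567 on chromosome 7, Pacsin2 spans 83375607 to 83464606 on chromosome 15 and Plvap spans 71497765 to 71511752 on chromosome 8, all on the minus strand. Whether counting used strand is not stated in the sources used here, and without strand, reads from overlapping genes of opposite strands cannot be told apart. Plvap overlaps the protein-coding Gtpbp3 over 1819 bases, and Gtpbp3 was at 18.6 to 23.4 CPM. The opposite-strand genes that overlap Cav1, Cav2, Cavin2 and Cavin3 had at most 8 counts in a library, as did the pseudogene inside Pacsin2.

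TET2 oxidises methylated cytosine, which in mammals sits mainly in CG pairs, and the 250 bases before the start site are shown with CG pairs in capitals. Sequences are from RefSeq (GRCm38.p6), which held promoters for 6 of the 8 genes, not for Cavin3 and Plvap. Cav1 and Cav2 are shown as neighbours, Cavin2 as the window poorest in CG and Pacsin2 as the richest and the gene whose level differed least. In these 4 genes the most upstream RefSeq start was also the GENCODE gene start, while Cavin1 and Ehd2, whose starts differ between the annotations, are given by their counts. The windows, 5′ to 3′ on the gene's strand, are chr6:17306085-17306334 (plus) for Cav1, chr6:17280935-17281184 (plus) for Cav2, chr1:51288876-51289125 (plus) for Cavin2 and chr15:83464607-83464856 (minus) for Pacsin2.
Cav1: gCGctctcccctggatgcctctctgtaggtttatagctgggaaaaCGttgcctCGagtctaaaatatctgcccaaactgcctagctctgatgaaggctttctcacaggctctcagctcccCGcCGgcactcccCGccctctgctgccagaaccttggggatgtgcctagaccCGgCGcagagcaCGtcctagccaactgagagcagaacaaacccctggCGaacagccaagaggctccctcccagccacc
Cav2: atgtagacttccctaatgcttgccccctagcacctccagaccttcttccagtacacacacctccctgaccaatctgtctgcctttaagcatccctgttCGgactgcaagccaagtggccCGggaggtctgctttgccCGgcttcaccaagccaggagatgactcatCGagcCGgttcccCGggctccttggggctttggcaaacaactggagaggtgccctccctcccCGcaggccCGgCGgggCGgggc
Cavin2: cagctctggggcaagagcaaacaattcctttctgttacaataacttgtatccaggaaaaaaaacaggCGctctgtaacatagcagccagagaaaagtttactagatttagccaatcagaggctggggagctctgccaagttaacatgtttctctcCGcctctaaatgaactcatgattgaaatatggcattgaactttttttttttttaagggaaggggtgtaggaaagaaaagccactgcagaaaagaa
Pacsin2: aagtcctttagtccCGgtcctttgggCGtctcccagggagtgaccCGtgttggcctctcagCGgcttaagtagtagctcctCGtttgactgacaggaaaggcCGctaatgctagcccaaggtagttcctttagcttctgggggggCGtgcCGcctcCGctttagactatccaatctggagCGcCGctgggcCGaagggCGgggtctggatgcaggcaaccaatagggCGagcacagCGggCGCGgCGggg
Cavin2 stood apart from the rest in base composition: its window held 2 CG pairs and 40.4% G and C, against 10 CG pairs for Cav1, 10 for Cav2, 12 for Cavin1, 12 for Ehd2 and 18 for Pacsin2. The other start sites of Pacsin2 in the table had 4 and 2. Over all 32851 windows of this length in the table the median was 6 CG pairs, and 92.1% held at least 1. Methylation was not measured in these libraries. GGAA, the core bound by ETS factors (searched on both strands, as GGAA or TTCC), had 1 match for Cav1, 3 for Cav2, 5 for Cavin1, 4 for Cavin2, 0 for Ehd2 and 2 for Pacsin2, and 93.4% of all windows held it. The GC box GGGCGG (both strands), which contains a CG pair, had 1 match in each of these 6 windows but that of Cavin2, and was in 32.7% of all windows. TATAAA (both strands) was in the Cav1 window, in none of the other 5, and in 12.4% of all windows. A match of letters is a description and not a bound site.

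Per length, Plvap was the most abundant of the 8 transcripts and Cavin3 the least. In TPM, the authors' values per transcript length and per library total, Plvap ranged from 351 to 1121 over the 5 libraries, Cav1 from 284 to 587, Cavin2 from 134 to 394 and Cavin1 from 86.5 to 271. Cav2 ranged from 96.8 to 200.3 TPM, Pacsin2 from 66.7 to 95.4, Ehd2 from 36.7 to 115 and Cavin3 from 8.998 to 20.6. The order Plvap, Cav1, Cavin2 held in all 5 libraries. Cavin1 exceeded Cav2 in 4 libraries, WT replicate 2 being the exception, and Pacsin2 and Ehd2 did not keep an order, with Pacsin2 higher in 3 libraries. Between neighbours in this order, the ranges over libraries were separate for Cav2 and Pacsin2 and for Ehd2 and Cavin3, and overlapped for the others.

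**Figure D1:**
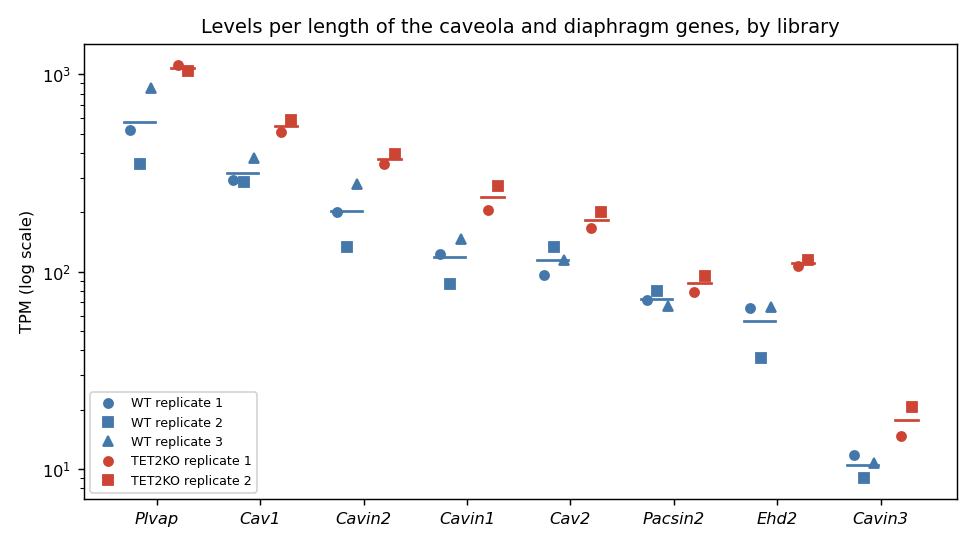
TPM (log axis) of the 8 genes in each library, with WT in blue, TET2KO in red, a marker shape per replicate number and a bar at each group mean. For every gene but Pacsin2 the TET2KO libraries are above the WT libraries in TPM, and WT replicate 3 is the highest WT library for Plvap (852 TPM), Cav1, Cavin1 and Cavin2.

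In the comparison of TET2KO with WT, which asks what the loss of TET2 in endothelium does to transcripts under angiotensin II, all 8 genes had a fitted log2 fold change above 0, where 41.6% of all tested genes did. Their median was 0.63, against -0.08 over all genes tested. In 6 of the 8, each TET2KO library exceeded each WT library in CPM, where 12.4% of all genes did (and 12.4% had the opposite order). The exceptions were Cav2, which was separate in TPM, and Pacsin2. With edgeR's quasi-likelihood test and Benjamini-Hochberg adjustment over all genes, 0 of the 8 passed 0.05, and 0% of all genes did. At an unadjusted p under 0.05, edgeR found Cav1, Cavin1, Cavin2 and Ehd2, 4 of the 8, where 5.19% of all genes reached that p and were higher in TET2KO. DESeq2 on the same groups called 60 genes (0.340% of those with an adjusted p), with 0 of the 8 among them and a lowest adjusted p of 0.228, for Ehd2. Bulk libraries do not tell more endothelial cells in the isolate from more RNA per cell.

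Among the caveolins, Cav1, whose product is the main structural protein of the pit, measured 289, 371 and 382 CPM in WT replicates 1 to 3, against 479.7 and 554 in TET2KO replicates 1 and 2. The groups did not overlap, and WT replicate 1 was the lowest library. Its log2 fold change was 0.57 (SE 0.21, 95% interval 0.06 to 1.09; edgeR adjusted p = 0.848). Cav2, the partner that forms hetero-oligomers with caveolin-1, measured 92.3, 169 and 112 CPM in WT, against 152 and 183 in TET2KO. WT replicate 2 lay between the TET2KO libraries, so the groups overlapped. The Cav2 log2 fold change was 0.43 (SE 0.29), with an interval from -0.29 to 1.15, and 0.74 (SE 0.17) without WT replicate 2 (edgeR adjusted p = 0.407). It was 0.26 (SE 0.29) without WT replicate 1 and 0.29 (SE 0.41) without TET2KO replicate 2. The TPM ratio of Cav1 to Cav2 was 3.03, 2.13 and 3.30 in WT and 3.05 and 2.93 in TET2KO, with WT replicate 2 the lowest library, and averaged 3.16 in WT without it. That of Cav1 to Pacsin2 was 4.09, 3.55 and 5.64 in WT and 6.40 and 6.15 in TET2KO, without overlap.

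In all 3 cavins each TET2KO library exceeded each WT library in CPM, where 12.4% of all genes did. The same order held in 20 of the 21 endothelial identity genes. Cavin1, without which the coat does not form, measured 127, 118 and 155 CPM in WT, against 203 and 266 in TET2KO. TET2KO replicate 2 was the highest library, well above TET2KO replicate 1. The log2 fold change of Cavin1 was 0.82 (SE 0.21, 95% interval 0.29 to 1.34; edgeR adjusted p = 0.778). Cavin2 (SDPR), which helps to bend the membrane and sets the form of endothelial caveolae, measured 177, 155 and 249 CPM in WT, against 295 and 330.3 in TET2KO. Here WT replicate 3 stood nearer to the TET2KO libraries than to the other WT libraries. The Cavin2 log2 fold change was 0.69 (SE 0.25) and, without WT replicate 3, 0.95 (SE 0.20; edgeR adjusted p = 0.848 and 0.450). Cavin3, which ties cavin complexes to signalling, measured 5.61, 5.68 and 5.27 CPM in WT, against 6.74 and 9.40 in TET2KO, from 160 to 300 counts per library. Counting error alone was 5.77% to 7.91% of each Cavin3 value, and at most 2.18% for the other genes. The 3 WT libraries were close to each other and TET2KO replicate 2 was well above TET2KO replicate 1. Its log2 fold change was 0.55 (SE 0.24), and 0.29 (SE 0.34) without TET2KO replicate 2.

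Of the neck proteins, Ehd2 had a larger fitted change than Pacsin2, with intervals that overlapped, and the difference between them was not tested. Ehd2, an ATPase that rings the neck and keeps caveolae at the surface, measured 96.1, 71.2 and 100.4 CPM in WT, against 149.6 and 161 in TET2KO. All WT libraries were below both TET2KO libraries, WT replicate 2 being the lowest. The log2 fold change was 0.80 (SE 0.20, 95% interval 0.30 to 1.30; edgeR adjusted p = 0.778). Pacsin2, an F-BAR protein that bends membrane at the neck and also serves other endocytic routes, measured 79.6, 118 and 76.3 CPM in WT, against 84.5 and 102 in TET2KO. WT replicate 2 was the highest library of all. The Pacsin2 log2 fold change was 0.03 (SE 0.25), with an interval from -0.59 to 0.64 that holds changes of either sign. It was 0.28 (SE 0.14) without WT replicate 2, -0.06 (SE 0.27) without WT replicate 3, and below 0 as well without WT replicate 1 (-0.06) or TET2KO replicate 2 (-0.11).

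Plvap, the diaphragm gene, measured 296, 265 and 498 CPM in WT, against 609.6 and 568 in TET2KO. WT replicate 3 was close to the TET2KO libraries and far above the other WT libraries, though below both TET2KO libraries. The spread within WT was 127 CPM (SD, n = 3) around a mean of 353 CPM, against 29.4 CPM (SD, n = 2) around 589 CPM in TET2KO. The log2 fold change was 0.74 (SE 0.31), with a 95% interval from -0.04 to 1.52 and an edgeR adjusted p of 0.875. Without WT replicate 3 it was 1.10 (SE 0.21; edgeR adjusted p = 0.450). The authors' deposited table gave Plvap a log2 fold change of 1.01 and an adjusted p of 0.00145, and Cavin2 0.83 and 0.0363, while the other 6 genes had adjusted p-values from 0.145 to 0.844 in that table. Among all genes given an adjusted p there, 1.45% were past 0.05 with a fold change above 0. Those values come from the grouping that sets WT replicate 3 beside the TET2KO libraries. With the groups as labelled, the ratio of the same normalized signals gave 0.75 for Plvap and 0.71 for Cavin2.

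**Figure D2:**
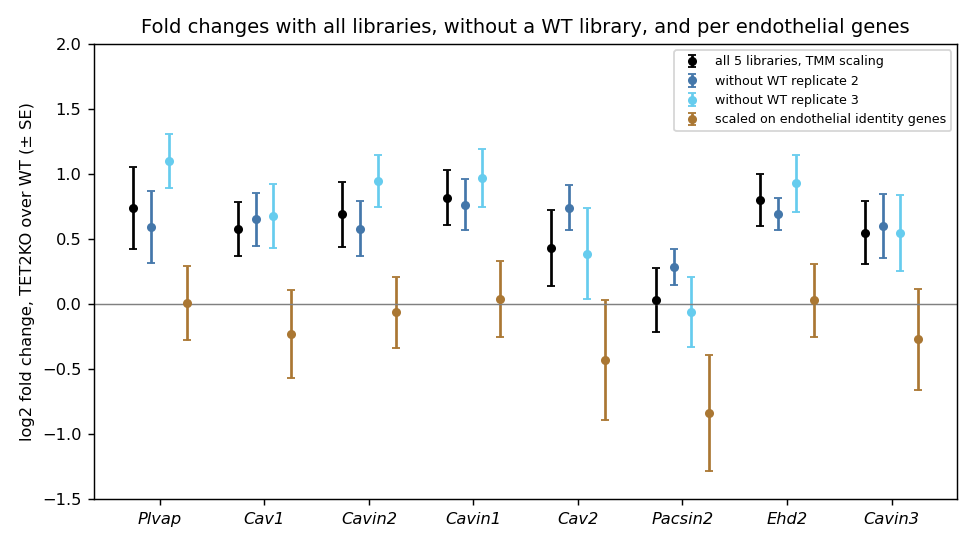
Fitted log2 fold change of TET2KO over WT with its SE (bars) for the 8 genes, with all 5 libraries, without WT replicate 2, without WT replicate 3, and with libraries scaled on endothelial identity genes. Plvap moves from 0.74 to 1.10 without WT replicate 3 and Cav2 from 0.43 to 0.74 without WT replicate 2, and under endothelial scaling the 8 values lie between -0.84 and 0.04.

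The count of genes without overlap between groups was repeated without each library, a check chosen after seeing the data. It was 8 of 8 without WT replicate 2 (20.4% of all genes), 6 of 8 without WT replicate 1 (17.2%), WT replicate 3 (18.9%) or TET2KO replicate 2 (20.6%), and 7 of 8 without TET2KO replicate 1 (21.0%). The median log2 fold change of the 8 ranged from 0.54 to 0.80 over these omissions, with 0 genes past the adjusted threshold in each. Cav1, Cavin1 and Ehd2 were at 0.65, 0.76 and 0.69 without WT replicate 2, and at 0.68, 0.97 and 0.93 without WT replicate 3. They were at 0.46, 0.78 and 0.86 without WT replicate 1. Without TET2KO replicate 1 they were at 0.67, 0.998 and 0.85, and without TET2KO replicate 2 at 0.47, 0.61 and 0.75. At an unadjusted edgeR p under 0.05 there were 2 of the 8 without WT replicate 1 (659 of 18335 genes, higher in TET2KO). It was 5 without WT replicate 2 (1420 of 18453) or WT replicate 3 (1147 of 18430). The count is not given without a TET2KO library, as that leaves 1 library in the group, so it was not shown to hold there. Plvap and Cavin2 were at 0.59 and 0.58 without WT replicate 2. All 8 had a log2 fold change above 0 without WT replicate 2 (50.7% of all genes) or TET2KO replicate 1 (38.8%), as with unadjusted library totals (58.5%). Without WT replicate 1 (43.4%), WT replicate 3 (48.7%) or TET2KO replicate 2 (43.8%) it was 7 of 8, with Pacsin2 below 0.

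The 21 endothelial identity genes had a median log2 fold change of 0.75, beside 0.63 for the caveola genes, with 21 of 21 above 0 (41.6% of all genes). By edgeR 0 of the 21 passed the threshold (lowest adjusted p = 0.778). At an unadjusted p under 0.05 there were 12, where 5.19% of all genes reached that p and were higher in TET2KO. The median was 0.64 without WT replicate 2 and 1.01 without WT replicate 3. Their summed level was 4001 to 6952 CPM in WT and 8694 to 8754 CPM in TET2KO. The summed level of the 8 caveola genes was 1162 to 1578 CPM in WT and 1979.6 to 2174 CPM in TET2KO. With libraries scaled on the endothelial identity genes in place of TMM, which shifts the median over all genes to -0.87, the median of the 8 was -0.15 and 3 of the 8 lay above 0, where 7.89% of all genes did. Those were Cavin1 at 0.04 (SE 0.29), Ehd2 at 0.03 (SE 0.28) and Plvap at 0.01 (SE 0.29), while Cav1 was at -0.23 (SE 0.34), Cavin2 at -0.06 (SE 0.27), Cavin3 at -0.27 (SE 0.39), Cav2 at -0.43 (SE 0.46) and Pacsin2 at -0.84 (SE 0.45). The direction of Cav1, Cav2, Cavin2, Cavin3 and Pacsin2 was thus the opposite of that under TMM scaling.

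Relative to the endothelial genes, Cavin1, Cavin2, Ehd2 and Plvap varied little between libraries, while Cav1, Cav2, Cavin3 and Pacsin2 varied more. The log2 ratio of CPM to the geometric mean of the 21 genes was 0.26, 0.38 and 0.34 for Cavin2 in WT and 0.20 and 0.33 in TET2KO, the narrowest range of the 8. For Plvap it was 1.01, 1.15 and 1.34 in WT and 1.25 and 1.11 in TET2KO. Ehd2 kept between -0.97 and -0.62, and Cavin1 between -0.35 and 0.02, while Cavin3 was at -4.39 in WT replicate 2 and between -5.25 and -4.72 in the others. Cav1 was at 1.64 in WT replicate 2 and between 0.90 and 1.07 in the other libraries. Cav2 was at 0.50 in WT replicate 2 against -0.81 to -0.53 elsewhere, and Pacsin2 at -0.02 against -1.60 to -0.89. WT replicate 2, the library with the highest macrophage and monocyte level, was the highest for 5 of the 8 genes: Cav1, Cav2, Cavin2, Cavin3 and Pacsin2. The median log2 ratio over the 8 genes was -0.42, 0.18 and -0.58 in WT and -0.55 and -0.26 in TET2KO, so the groups overlapped. The difference between group means was -0.13 against an SD of 0.40 in WT, and 0.10 without WT replicate 2. An exact permutation test on the absolute difference gave p = 0.9. The smallest p that 3 libraries against 2 can give is 0.1, which is above the threshold used here. The test could therefore not have shown a difference of any size, and no conclusion is drawn from it.

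**Figure D3:**
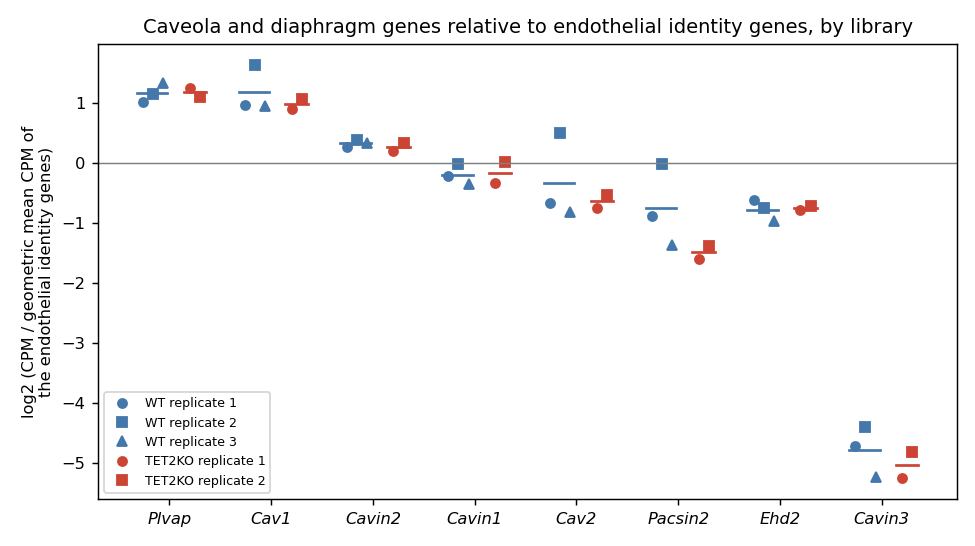
Log2 ratio of each gene's CPM to the geometric mean CPM of the endothelial identity genes in each library, with WT in blue, TET2KO in red and a bar at each group mean. The groups overlap for every gene but Pacsin2, whose TET2KO values (-1.60 and -1.376) lie below all WT values. The separation is very small, as WT replicate 3 is at -1.368. With libraries scaled on the endothelial genes, Pacsin2 had a log2 fold change of -0.84, beside a median of -0.87 over all genes. The share of all genes without overlap on this scale was not counted. WT replicate 2 is the highest library for Cav1 (1.64), Cav2 (0.50), Cavin2 (0.38), Cavin3 (-4.39) and Pacsin2 (-0.02).

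Other cells of the lung that carry caveolae were also looked for. Of 8 alveolar type 1 genes, 7 had a log2 fold change above 0 (41.6% of all genes). The summed level of the 8 was 352 to 444 CPM in WT and 679 to 764 CPM in TET2KO. Its largest terms were Clic5 (127 to 209 CPM in WT, 315 and 317 in TET2KO) and Emp2 (96.8 to 222 CPM in WT, 272 and 293 in TET2KO). Whether the RNA of Clic5 and Emp2 came from type 1 cells was not tested. The 6 mesothelial genes summed to 9.16 to 14.3 CPM in WT and to 30.3 to 43.3 CPM in TET2KO, with 6 of 6 above 0. Leukocyte genes lay the other way, with 8 of 8 below 0 and sums of 5606 to 7601 CPM in WT and 4511 to 4647 CPM in TET2KO. Macrophage and monocyte genes had 10 of 10 below 0, with sums that overlapped between groups (3778 to 41080.3 CPM in WT, 5413 to 9827 CPM in TET2KO). The groups overlapped as well for fibroblast genes (43.4 to 119 CPM in WT, 93.4 to 107 CPM in TET2KO), for pericyte and smooth muscle genes (16.2 to 31.9 and 24.5 to 24.7 CPM) and for adipocyte genes (54.1 to 389 and 65.5 to 189 CPM), among which Lep was at 0 in every library and Adipoq had at most 8 counts. They also overlapped for alveolar type 2 (452 to 1084 and 798 to 1085 CPM), neutrophil (104 to 217 and 144 to 155 CPM), B cell (1138 to 4768 and 1981 to 3198 CPM), T and NK cell (435 to 788 and 516 to 658 CPM) and platelet genes (10.7 to 61.6 and 29.1 to 47.0 CPM). The part of these cells in the caveola transcripts was not tested.

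The make-up of the coat per length was nearly the same in the groups. Of the summed TPM of Cav1, Cav2, Cavin1, Cavin2 and Cavin3, Cav1 held 41.6% ± 1.97 in WT (SD, n = 3) and 40.3% ± 0.640 in TET2KO (SD, n = 2). Cavin1 held 15.4% ± 1.85 and 17.5% ± 1.32, and Cavin2 26.2% ± 4.83 and 27.5% ± 1.01. Cavin3 held 1.39% ± 0.228 and 1.29% ± 0.152. Cav2 held 15.4% ± 4.52 in WT and 13.5% ± 0.173 in TET2KO, and its WT spread came from WT replicate 2, at 20.6% against 12.3% to 13.6% in the other libraries (12.8% ± 0.680 in WT without it). Each difference in share was smaller than the larger SD of its groups, apart from that of Cavin1, whose libraries overlapped between groups (13.4% to 17.0% in WT, 16.5% and 18.4% in TET2KO). The summed level of the coat genes itself was 766 ± 144 TPM in WT and 1361 ± 159 TPM in TET2KO. The TPM ratio of Cav1 to Cavin1 was 2.37, 3.28 and 2.57 in WT and 2.47 and 2.17 in TET2KO, a log2 difference of -0.23 that was within the WT spread of 0.24.

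The genes also differed in how alike their patterns were over the 5 libraries, measured as the root mean square difference of log2 CPM after each gene was centred on its own mean. Cavin2 was closest to Plvap and to Cavin1 (0.13 for both), and Ehd2 was 0.14 from Cavin1. Pacsin2 was 0.62 from Plvap, the largest distance among the 8, and 0.24 from Cav2, its nearest. Among the 10142 other genes whose log2 CPM averaged 3 or more, the 4 nearest to Cav1 were Wwc2 (0.03), Gstm2 (0.05), Serpinb6b (0.08) and Mansc1 (0.08). The 4 nearest to Plvap were Bmp6 (0.03), Ptpn14 (0.05), Adcy4 (0.06) and Efnb2 (0.06). Bmp6, which encodes a ligand of the BMP family, measured 71.1, 62.97 and 121 CPM in WT, against 139 and 135 in TET2KO. WT replicate 3 lay between the other WT libraries and TET2KO, which follows from picking Bmp6 by its likeness to Plvap.

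Relatives and accessory proteins of caveolae gave no common direction. Of 12 tested, 7 were above 0 (41.6% of all genes) and 5 below, with a median of 0.05 (0.16 without WT replicate 2). By edgeR 0 passed the adjusted threshold, and 2 had an unadjusted p under 0.05 and were higher in TET2KO (5.19% of all genes). These were Ehd4, a close relative of Ehd2, with 342, 360.1 and 411 CPM in WT, against 519.7 and 640.4 in TET2KO (log2 fold change 0.65, SE 0.20), and Cavin4, the cavin of striated muscle, with 1.37, 1.35 and 1.91 CPM in WT, against 3.75 and 3.76 in TET2KO (log2 fold change 1.28, SE 0.30). Of the 12, 4 had both TET2KO libraries above all WT libraries (12.4% of all genes), Ehd4 and Cavin4 among them, and 1 had the opposite order. The scission GTPases Dnm1 and Dnm3 were at 0.69 (SE 0.30) and 0.45 (SE 0.27), both at low level, and the ubiquitous Dnm2 was at -0.12 (SE 0.17). Cav3, the muscle caveolin, did not pass the filter.

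Proteins housed in caveolae or signalling from them were mostly higher in TET2KO in value, with 11 of 12 above 0 (41.6% of all genes). Their median was 0.60, with 0 past the adjusted threshold. At an unadjusted p under 0.05 there were 4 of 12 (5.19% of all genes), and 7 of 12 had TET2KO above WT without overlap (12.4% of all genes). Nos3, the nitric oxide synthase that caveolin-1 holds in check, measured 23.4, 18.4 and 24.5 CPM in WT, against 33.4 and 44.0 in TET2KO. The BMP receptors Acvrl1 (ALK1) and Bmpr2 had log2 fold changes of 0.70 (SE 0.23) and 0.71 (SE 0.27), and Aqp1, a water channel of caveolar membrane, 0.64 (SE 0.23). These 4 genes are named as those of smallest p in the list. The angiotensin receptor gene Agtr1a did not pass the filter.

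Genes of vesicular transport across endothelium were split, with 6 above 0 (41.6% of all genes) and 6 below. Their median was 0.01, which was 0.16 without WT replicate 2 and -0.06 without WT replicate 3. Of these 12 genes, 3 had an unadjusted edgeR p under 0.05 and were higher in TET2KO (5.19% of all genes). At that p 0 were lower. Gpihbp1, which carries lipoprotein lipase across capillaries, measured 49.1, 40.7 and 60.9 CPM in WT, against 90.6 and 75.4 in TET2KO. Its groups were separate, while Nsf, the ATPase that recycles fusion complexes, was lower in both TET2KO libraries (log2 fold change -0.59, SE 0.36; -0.15, SE 0.12, without WT replicate 2, which was at 221 CPM). Among genes that induce fenestrae and Plvap, 4 of 6 were above 0 (41.6% of all genes) with a median of 0.56. Without WT replicate 2 it was 6 of 6 (50.7% of all genes), with a median of 0.47. With all libraries, 3 of the 6 had an unadjusted edgeR p under 0.05 and were higher in TET2KO (5.19% of all genes). Vegfa measured 163, 172 and 282 CPM in WT, against 415 and 398 in TET2KO (log2 fold change 0.98, SE 0.28; 1.31, SE 0.20, without WT replicate 3), and its receptors Flt1, Nrp1 and Kdr were at 0.75 (SE 0.22), 0.40 (SE 0.15) and 0.73 (SE 0.33), Kdr being one of the endothelial identity genes as well. WT replicate 3 was the highest WT library for Vegfa, as it was for Plvap. It was also the highest for the summed endothelial identity genes (6952 CPM, against 5025 and 4001 CPM in WT replicates 1 and 2). A link between Vegfa and Plvap was not tested. Nrp2, another receptor of the list, was at -1.01 (SE 0.92) and at 0.43 (SE 0.32) without WT replicate 2, which held 382 CPM against 48.6 to 106 in the other libraries. Neither list had a gene past the adjusted threshold.

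Of 23 genes of the clathrin coat, the other main route of endocytosis, 4 were above 0 (41.6% of all genes) and 19 below. Their median was -0.18, with 0 past the adjusted threshold. This direction rested on WT replicate 2: without it 13 were above 0 (50.7% of all genes) and 10 below, with a median of 0.01. Epn2, an adaptor that bends membrane at clathrin pits, had the smallest unadjusted p, with 30.3, 30.0 and 42.5 CPM in WT, against 51.1 and 56.6 in TET2KO (log2 fold change 0.65, SE 0.21). Ap2b1, a subunit of the plasma membrane adaptor complex, measured 180.5, 231 and 193 CPM in WT, against 165 and 163 in TET2KO. Clta, a clathrin light chain, had a log2 fold change of -0.52 (SE 0.36) with WT replicate 2 far above the other libraries at 296 CPM, and -0.10 (SE 0.17) without that library. Repeats of list values without a library were chosen after seeing the data.

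**Figure D4:**
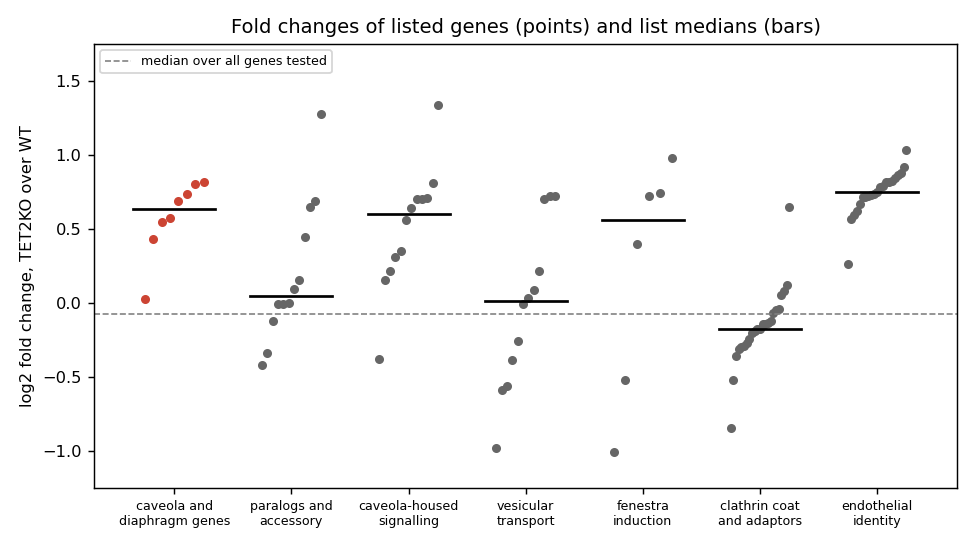
Log2 fold change of TET2KO over WT for the 8 caveola and diaphragm genes (red points), for the tested genes of the pathway lists and for endothelial identity genes (grey points), with a bar at each median and a dashed line at the median over all genes (-0.08). The medians are 0.63 for the caveola and diaphragm genes, 0.75 for endothelial identity and -0.18 for the clathrin list, whose median is 0.01 without WT replicate 2.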

How the data were processed

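The submitters' processing notes name Trimmomatic 0.36, STAR 2.5.2b, Subread 1.5.2 (featureCounts), DESeq2 and the build GRCm38, with no settings. The authors deposited raw counts per gene, TPM, and tables with log2 fold changes, p-values and a normalized signal (counts divided by a size factor per library, checked against the deposited counts). Groups were taken from the labels. Counts were fitted with edgeR 4.0.16 in R 4.3.3 (TMM, filterByExpr, genotype only). The quasi-likelihood test was used, with Benjamini-Hochberg adjustment over 18727 genes and a threshold of 0.05. The fit was also run on simulated counts, and the outcome of that run is not given here. SE is the log2 fold change over the root of F. Log2 CPM used a prior count of 2. Alternatives were DESeq2 1.42.0, limma 3.58.1 (voom, or log2(TPM + 1) and log2(TPM + 0.1)), RLE, upper quartile, library total and endothelial scaling, 2 other filters, omission of each library and a replicate block. Named genes were the 8 members, up to 4 genes of smallest p per pathway list and the 4 genes nearest in pattern to Cav1 and Plvap. Cav3, Agtr1a, Nrp2, Dnm2, Lep, Adipoq, Gtpbp3, Clic5, Emp2, Pecam1, Cdh5, Ptprc and Tet2 were named in addition. A listed gene that the rule names is not reported here. Members and lists were chosen with earlier results of these data known.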

Additional observations from a re-analysis of the deposited data

How the results depend on the processing

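Over all genes edgeR called 0 (1065 at an unadjusted p under 0.05), as did limma-voom (1109) and the other edgeR settings, while DESeq2 called 60, of which 0 were caveola or diaphragm genes. The median log2 fold change of the 8 genes was 0.63. It was -0.15 with endothelial scaling, 0.86 on log2(TPM + 1) and on log2(TPM + 0.1), and from 0.54 to 0.80 when a library was left out (0.80 without WT replicate 3). The median over all genes moved from -0.08 to 0.06 with library totals, 0.13 on log2(TPM + 1) and -0.87 with endothelial scaling. With endothelial scaling the log2 fold change was -0.23 for Cav1, -0.43 for Cav2, -0.064 for Cavin2, -0.27 for Cavin3 and -0.84 for Pacsin2. Pacsin2 ran from -0.11 to 0.28 when a library was left out and was -0.034 with the replicate block. Cavin1, Ehd2 and Plvap stayed above 0 in all settings run, but close to 0 with endothelial scaling. There they were at 0.04 (SE 0.29), 0.03 (SE 0.28) and 0.01 (SE 0.29). The ratio to endothelial genes (-0.13) ran from -0.28 to 0.10 over the omissions. With 2 pairs the shared replicate numbers do not establish pairing; over genes, the difference of replicates 1 and 2 in WT correlated with that in TET2KO at r = 0.44. With the replicate block on those 4 libraries the median was 0.81 and 0 genes were called, with 2982 at an unadjusted p under 0.05 against 1365 without the block. The cause of these shifts was not tested. Counting error was at most 7.91% (Cavin3), below the fitted variation between libraries (coefficient 0.257 for that gene).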
